A study of Mus musculus with 2 samples.

Results

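The genes described here carry out fatty acid oxidation and ketogenesis in the hepatocyte, the main metabolic cell of the liver. A fixed list of 35 genes was looked up by symbol, and all 35 were found among the 27998 genes of the count files. The list held 16 genes of mitochondrial oxidation, 7 of peroxisomal oxidation, 2 of ketogenesis, and a group of 10 made of the fatty acid receptor Ppara and genes known as its targets. A wider set of 97 genes of the same pathways was read beside them, and some other genes of these pathways are not reported. Livers of C57BL/6 mice (males of the substrain C57BL/6J by the study's methods) of 10 to 12 weeks, kept on a normal diet, were perfused with collagenase, and the transcripts of the released hepatocytes were counted by single-cell RNA-Seq (scRNA-Seq) with droplet barcodes. Partial hepatectomy (PHx) removes most of the liver, after which the remnant regrows. The series held 2 libraries, 1 from healthy, undamaged liver (0 h) and 1 from liver 48 h after PHx (PHx48h). The labels name no engineered allele and no agent in either group. With 1 library per group there is no replicate check and no test between the times, so every interval below covers counting error only.

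Fatty acids are the main fuel of the fasting liver. In mitochondria they are shortened by 2 carbons per cycle, and the acetyl-CoA that results can be turned into ketone bodies, which the liver exports to other organs. Peroxisomes shorten very long and branched chains and pass the products to the mitochondria. PPARA, a nuclear receptor that binds fatty acids, activates many genes of all these steps, and fatty acid oxidation is generally described as more active in hepatocytes near the portal vein. In each droplet the share of unique molecular identifiers (UMIs, 1 per captured transcript molecule) from mitochondrial genes varies widely. Hepatocytes are rich in mitochondria, and a high share can also mark a leaking cell.

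Each gene was measured in barcodes with over 30% mitochondrial UMIs and in barcodes with under 2%, separately in both libraries. The over 30% set held 3870 barcodes at 0 h, which was 6.54% of that library, and 765 barcodes at PHx48h, which was 48.2%. The under 2% set held 52587 barcodes at 0 h and 522 at PHx48h. Median non-mitochondrial UMIs per barcode were 1213.5 and 1413 in the over 30% and under 2% sets at 0 h, and 4411 and 5272 at PHx48h. The 0 h library listed many times more barcodes than the number of hepatocytes the study describes after its own filters, whose thresholds are not given in the sources used here. A listed barcode at 0 h is therefore not known to be a cell, and the 0 h levels are averages over the listed barcodes. All values were also computed from barcodes with at least 3000 non-mitochondrial UMIs, which left 264 over 30% and 555 under 2% at 0 h and 522 of each at PHx48h. In total the 4 sets held between 3135996 (PHx48h, under 2%) and 78751891 (0 h, under 2%) non-mitochondrial UMIs. A level below is UMIs of a gene per 1000000 non-mitochondrial UMIs, summed over the barcodes of a set, with its exact Poisson 95% interval. Of the barcode sequences, 148 occurred in both libraries, which was 9.33% of those at PHx48h.

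All 10 hepatocyte markers were detected in every set, with summed levels of 79256 to 125763. Summed levels of 8 Kupffer cell markers were at most 36.0, and those of 8 endothelial markers were 29.0 to 64.3. The 8 stellate and stromal markers summed to 25.1 to 30.8 in 3 sets and to 179 in the PHx48h under 2% set. Red cell genes summed to 162 in the 0 h under 2% set and to between 0.784 and 3.98 elsewhere. T and NK, B, cholangiocyte and neutrophil markers each summed to 6.78 or less, and at PHx48h all 7 T and NK and all 3 B cell markers were at 0 in both sets. The part of other cell types in the results was not tested beyond leaving out barcodes rich in their markers. A list of 28 proliferation genes summed to 37.9 at 0 h and 1127 at PHx48h in the over 30% set, and to 49.6 and 1425 in the under 2% set.

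In barcodes with over 30% mitochondrial UMIs, most genes of mitochondrial oxidation were higher at PHx48h, the peroxisomal genes were divided, and 2 genes with high levels at 0 h, Acaa1b and Acsl1, were lower. A ratio was called when it reached 2-fold, among genes with a mean level over the 2 libraries of at least 10 per 1000000. The floor was reached by 31 of the 35 genes. Acot4 and Acot1 were below the floor at 0 h and reached it through PHx48h, so their direction was partly set by the filter. Of the 31 genes, 15 were called higher, beside 30.6% of all 6718 genes tested. Called lower were 2 of the 31, beside 5.52% of all genes. Among barcodes with at least 3000 UMIs, 15 were called higher and 1 lower, as Acaa1b no longer reached 2-fold. The share of all genes called higher among those deeper barcodes is not given here, so that count stands without its background. The median log2 ratio of the 31 genes was 0.91, and that of all genes was 0.54.

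All genes together were thus shifted upwards on this scale, which came to 0.29 without the 20 most abundant genes and to 0.02 with trimmed mean scaling. Relative to the median of all genes, 20 of the 31 genes lay above it, 5 exceeded it by 2-fold or more and 3 lay 2-fold or more below it. With trimmed mean scaling, 6 genes were called higher and 3 lower, against 15 and 2 on the main scale, while the shares over all genes became 14.6% higher and 14.2% lower. In the under 2% set the median of the 31 genes tested was 0.13, beside 0.09 for all genes. There 8 of 31 genes were called higher, beside 25.8% of all 5716 genes, and 4 were called lower, beside 21.6%. In this set Ppara and Acot4 were below the floor at 0 h and reached it through PHx48h. Their direction here was thus partly set by the filter. With trimmed mean scaling these counts were 5 higher and 7 lower, beside 21.7% and 26.1% of all genes. The levels of all 35 genes are plotted by barcode set, and their ratios beside the median of all genes.

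**Figure D1:**
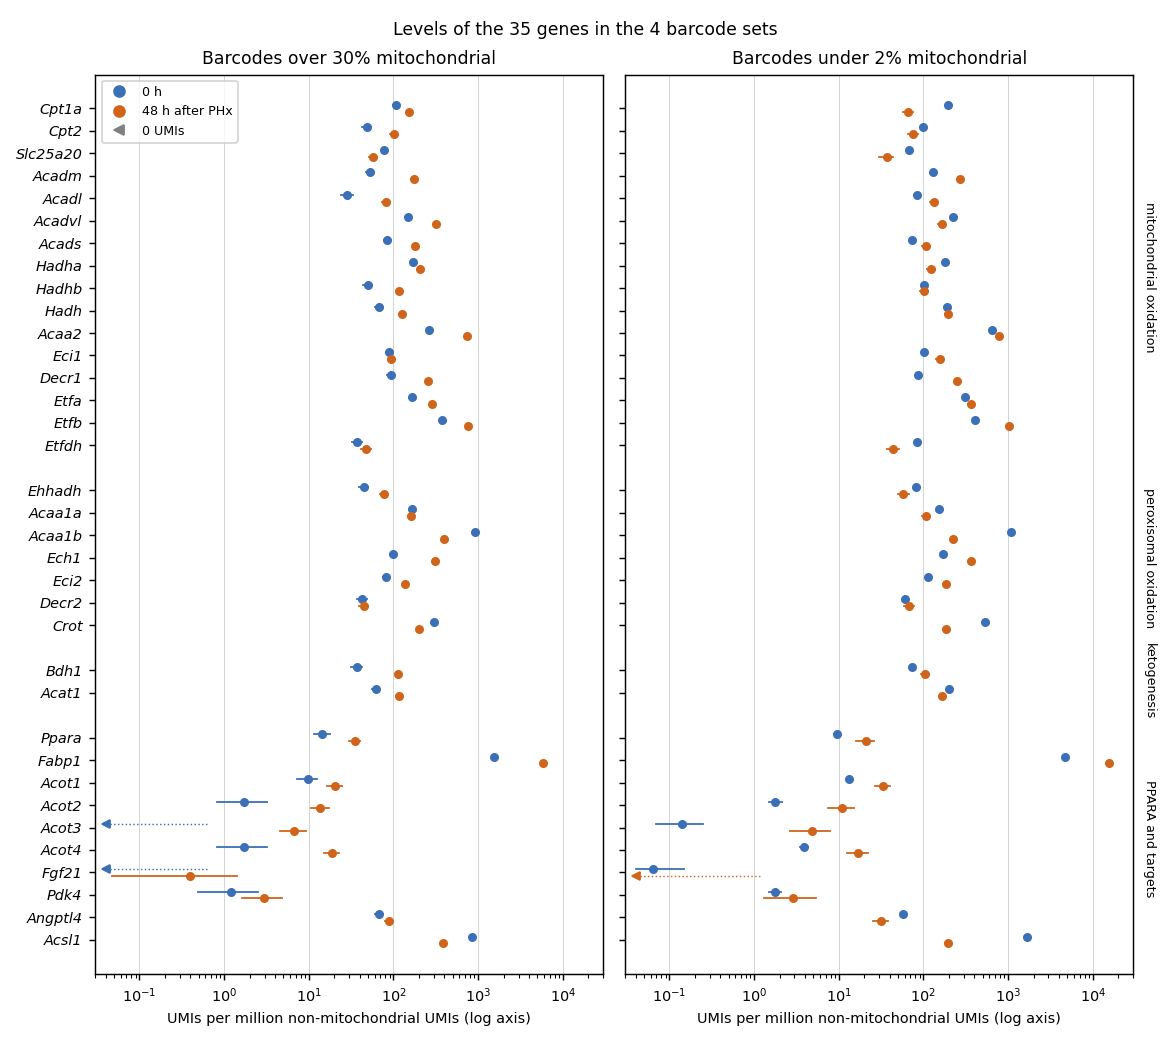
Levels of the 35 genes in UMIs per 1000000 non-mitochondrial UMIs (log axis) in barcodes over 30% (left) and under 2% mitochondrial (right); points are libraries (blue 0 h, orange PHx48h), bars are exact Poisson 95% intervals and arrowheads mark 0 UMIs. Fabp1 lay at 1521 and 5778 in the left panel, and Acsl1 at 837 and 380.

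**Figure D2:**
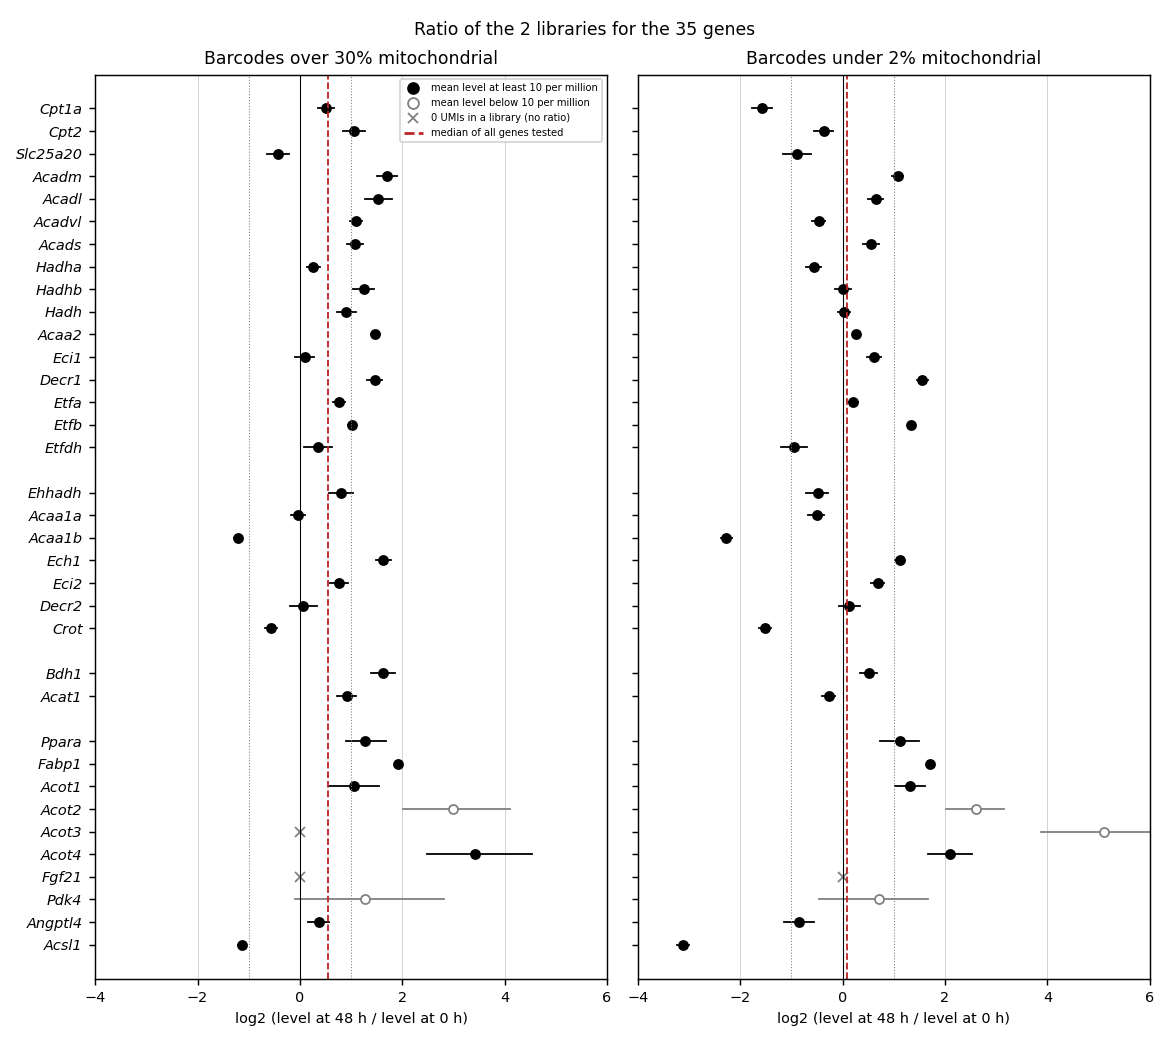
The log2 ratio of the level at PHx48h to that at 0 h for each gene, with 95% counting intervals, in barcodes over 30% (left) and under 2% mitochondrial (right); the dashed red line is the median of all genes tested, 0.54 and 0.09, and dotted lines mark 2-fold. On the left 26 of 31 tested genes lay above 0, beside 71.5% of all genes, and on the right 18 of 31, beside 52.7%.

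The 16 genes of mitochondrial oxidation summed to 1856 UMIs per 1000000 (1821 to 1892) at 0 h and 3676 (3624 to 3729) at PHx48h in the over 30% set. The sums were 2985 and 3894 in the under 2% set. Of the 16 genes, 15 were higher in the over 30% set, beside 71.5% of all genes. In that set 9 were called higher, beside 30.6%, with a median log2 ratio of 1.04. In the under 2% set 10 were higher, beside 52.7% of all genes, with a median of 0.12. Of these 16, 3 were called higher there, beside 25.8%, and 1 was called lower, beside 21.6%.

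Entry of fatty acids into mitochondria needs the carnitine shuttle. Cpt1a, the outer membrane enzyme that commits long chains to oxidation, was at 107 (99.2 to 116) at 0 h and 153 (143 to 164) at PHx48h in the over 30% set. Cpt1a was at 196 (193 to 199) and 65.7 (57.0 to 75.3) in the under 2% set, a log2 ratio of -1.57. The 2 barcode sets thus differed in direction for Cpt1a, but its over 30% ratio of 0.51 lay near the median of all genes and became -0.02 with trimmed mean scaling. Cpt2, the inner membrane partner that releases the acyl-CoA again, was at 48.3 and 100.3 in the over 30% set, a log2 ratio of 1.06 (0.84 to 1.27). Cpt2 was at 97.7 and 75.6 in the under 2% set. Slc25a20, the carnitine carrier between both enzymes, was at 77.4 and 57.6 in the over 30% set. It was the only mitochondrial gene of the list that was lower in that set on the main scale. Slc25a20 was lower in the under 2% set too, at 67.9 and 36.7.

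The 4 acyl-CoA dehydrogenases take the first step of each cycle at different chain lengths. All 4 were called higher in the over 30% set, beside 30.6% of all genes. With the median of all genes subtracted, their log2 ratios there were 1.16 for Acadm, 0.99 for Acadl, 0.55 for Acadvl and 0.53 for Acads. Acadm, for medium chains, was at 53.0 (47.2 to 59.2) at 0 h and 173 (161 to 184) at PHx48h there, and at 128 and 270 in the under 2% set. The log2 ratio of Acadm was 1.70 (1.52 to 1.90) and 1.08 (0.97 to 1.18), so it was called higher in both sets. Acadl, for long chains, was at 28.2 and 81.7 in the over 30% set and at 84.7 and 133 in the under 2% set. Acadvl, for very long chains, was at 148 and 316 in the over 30% set but at 226 and 164 in the under 2% set. Acads, for short chains, was at 85.0 and 179, and at 73.4 and 108. Of the 4, Acadvl alone had opposite directions in the 2 sets.

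The trifunctional protein, which takes the later steps for long chains, is made of the subunits Hadha and Hadhb. Their genes lie head to head on chromosome 5 (GRCm38, GENCODE M21), Hadha on the minus strand at 30118304 to 30155162 and Hadhb on the plus strand at 30155248 to 30184593. The 85 bases between the 2 annotated starts are shown because both genes start from this stretch while their ratios differed. They are given from the plus strand of RefSeq GRCm38.p6, with none in capitals since no motif is marked.
Hadha to Hadhb, chr5:30155163-30155247: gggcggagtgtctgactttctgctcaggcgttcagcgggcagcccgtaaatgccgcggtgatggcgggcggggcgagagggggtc
Hadhb was at 49.5 (43.9 to 55.6) and 117 (108 to 127) in the over 30% set, a log2 ratio of 1.25 (1.04 to 1.45). Hadha was at 171 (161 to 182) and 205 (192 to 217), a log2 ratio of 0.26 (0.13 to 0.38) that turned to 0 or below in all 3 other scalings. Hadha was at 182 and 123 in the under 2% set, and Hadhb at 102 and 102. In both sets the ratio of Hadhb lay above that of Hadha, by more than their counting intervals.

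Among the remaining mitochondrial enzymes, the thiolase Acaa2, which cuts off acetyl-CoA, was at 264 (251 to 277) and 732 (709 to 756) in the over 30% set and at 640 and 771 in the under 2% set. Decr1, a reductase for unsaturated chains, was at 92.4 and 255 in the over 30% set and at 85.5 and 252 in the under 2% set. Its log2 ratios of 1.46 and 1.56 were close to each other. Etfb, a subunit of the flavoprotein that takes up electrons from the dehydrogenases, was at 373 and 757 in the over 30% set and at 410 and 1037 in the under 2% set. Of its last 500 transcript bases, 180 of 411 windows of 90 bases also occurred in Gm45233, so the count of Etfb is uncertain. The remaining genes were not called in either set: Etfa, the partner of Etfb, had log2 ratios of 0.76 and 0.21, Hadh 0.90 and 0.03, Eci1 0.09 and 0.61, and Etfdh, which passes the electrons on, 0.36 and -0.95. The direction of Eci1 in the over 30% set turned in all 3 other scalings, that of Etfdh with trimmed mean scaling, and those of Hadh, Hadhb and Etfa in the under 2% set in at least 1 of them.

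The 7 peroxisomal genes summed to 1642 (1609 to 1675) at 0 h and 1321 (1289 to 1353) at PHx48h in the over 30% set, and to 2201 and 1196 in the under 2% set. In the over 30% set 4 were higher, beside 71.5% of all genes, and 3 lower. The median log2 ratio was 0.06, below the 0.54 of all genes. Called higher there was 1, beside 30.6%, and called lower was 1, beside 5.52%. In the under 2% set 3 were higher, beside 52.7% of all genes, and 4 lower, with a median of -0.49 beside 0.09. Called higher there was 1, beside 25.8%, and called lower were 2, beside 21.6%. Acaa1b and Crot had the largest drops in level in both sets. Acaa1b, one of a pair of peroxisomal thiolases, was at 912 (888 to 937) and 393 (376 to 411) in the over 30% set and at 1090 and 226 in the under 2% set. Its log2 ratios were -1.21 (-1.29 to -1.14) and -2.27 (-2.38 to -2.16), so it was called lower in both sets. Among barcodes with at least 3000 UMIs its over 30% ratio was -0.63 and not called, and its under 2% ratio was -2.32. Acaa1a, the other thiolase, was at 164 and 160 in the over 30% set and at 154 and 108 in the under 2% set, and neither ratio was called, with the over 30% ratio at 0.49 among the deeper barcodes. The 2 genes share sequence at the 3′ end, with 95 of 411 windows of Acaa1b also found in Acaa1a and 110 of 411 the other way, so reads in those windows could not be assigned to 1 of them.

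Crot, which attaches shortened chains to carnitine for export from the peroxisome, was at 297 and 201 in the over 30% set and at 531 and 185 in the under 2% set. Crot was called lower only in the under 2% set, where its log2 ratio was -1.52 (-1.64 to -1.40). The difference between the sets was not tested. Ech1, an isomerase for unsaturated chains, moved the other way: it was at 99.0 and 306 in the over 30% set and at 170 and 369 in the under 2% set. Its log2 ratios of 1.63 and 1.12 were called in both sets. Ehhadh, the bifunctional enzyme of the peroxisomal cycle, had log2 ratios of 0.80 (0.57 to 1.03) and -0.49 (-0.71 to -0.28). The ratios of the isomerase Eci2 were 0.76 and 0.69, and those of the reductase Decr2 were 0.06 and 0.13, with both signs of Decr2 turning in other scalings.

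Both ketogenesis genes were higher in the over 30% set, beside 71.5% of all genes. Their sum there was 98.5 (90.5 to 107) at 0 h and 229 (216 to 243) at PHx48h. Only Bdh1 was called higher in this set, beside 30.6% of all genes. With the median of all genes subtracted, the log2 ratios there were 1.08 for Bdh1 and 0.37 for Acat1. The sums were 274 (270 to 278) and 270 (253 to 289) in the under 2% set, with overlapping intervals. Bdh1, which converts acetoacetate to β-hydroxybutyrate, was at 36.7 (31.9 to 42.0) and 113 (104 to 122) in the over 30% set and at 74.0 and 105 in the under 2% set. Acat1, the mitochondrial thiolase that makes acetoacetyl-CoA, was at 61.8 and 116 in the over 30% set, a log2 ratio of 0.91 (0.72 to 1.10). Acat1 was at 200.0 and 165 in the under 2% set, a log2 ratio of -0.28. The levels of Acat1 at 0 h therefore differed more between the barcode sets than those at PHx48h did.

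Ppara itself, the receptor, was at 14.4 (11.4 to 17.8) and 34.9 (29.9 to 40.4) in the over 30% set and at 9.56 and 20.7 in the under 2% set. Its log2 ratio of 1.28 rested on 83 UMIs at 0 h and 178 at PHx48h, and the under 2% ratio was 1.12 (0.73 to 1.48). Among the deeper barcodes these were 0.90 and 0.58, and neither was called. Fabp1, the abundant fatty acid binding protein of liver cytosol, was at 1521 (1489 to 1553) and 5778 (5712 to 5844) in the over 30% set. Fabp1 was at 4753 and 15495 in the under 2% set. Its log2 ratios were 1.93 and 1.71, and it was called higher in both sets. Fabp1 made up a large part of all sums: the 35 genes together were at 6051 and 11569 in the over 30% set, and at 4530 and 5791 without Fabp1. The sums were 11978 and 21169 in the under 2% set with Fabp1, and 7225 and 5674 without it, so the direction of the sum turned.

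Acsl1, which activates long-chain fatty acids to acyl-CoA, was the other gene called lower in both sets. Acsl1 was at 837 (813 to 861) and 380 (364 to 398) in the over 30% set. It was at 1677 (1668 to 1687) and 193 (178 to 209) in the under 2% set. Its log2 ratios were -1.14 (-1.21 to -1.06) and -3.12 (-3.24 to -3.01), the lowest of any of the 31 genes in the under 2% set. Angptl4, a secreted inhibitor of lipoprotein lipase, was at 67.8 and 87.4 in the over 30% set and at 56.9 and 31.6 in the under 2% set. Its over 30% sign turned with trimmed mean scaling.

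The acyl-CoA thioesterases Acot1 to Acot4, which release free fatty acids from CoA, lie within 83987861 to 84060402 of chromosome 12 (GRCm38). All 4 had more UMIs per 1000000 at PHx48h in both sets. Of all genes tested, 71.5% were higher in the over 30% set and 52.7% in the under 2% set. At 0 h Acot2, Acot3 and Acot4 were below the floor in both sets, and Acot1 was below it in the over 30% set. Where 1 of these genes reached the floor, it did so through PHx48h, so its direction was partly set by the filter. Acot4, a peroxisomal form, was at 1.73 (0.83 to 3.18) and 18.6 (15.1 to 22.8) in the over 30% set, from 10 and 95 UMIs. Acot4 was at 3.92 and 16.9 in the under 2% set. Acot1, the cytosolic form, was at 9.69 and 20.2 in the over 30% set, and at 13.3 and 33.2 in the under 2% set. Acot2, the mitochondrial form, did not reach the floor, with 10 and 70 UMIs in the over 30% set, levels of 1.73 and 13.7. Acot2 was at 1.79 and 10.8 in the under 2% set. Acot3 had 0 UMIs at 0 h in the over 30% set, which allows up to 3 counts, and 34 UMIs at PHx48h. Its levels were 0 (0 to 0.638) and 6.66 (4.61 to 9.31). Set against 3 counts at 0 h it was 12.8-fold higher, a value that leaves out the counting error of the 34 UMIs. In the under 2% set Acot3 had 11 and 15 UMIs, levels of 0.140 and 4.78. None of the 411 windows of any of the 4 genes occurred in another gene.

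Fgf21, a hormone made by the fasting liver, had 0 and 2 UMIs in the over 30% set and 5 and 0 in the under 2% set, so no difference was detectable at this depth. Pdk4, a kinase that holds back glucose oxidation, had 7 and 15 UMIs in the over 30% set and 139 and 9 in the under 2% set. Its levels were 1.21 and 2.94 in the over 30% set and 1.77 and 2.87 in the under 2% set, all below the floor. The interval of its log2 ratio held 0 in both sets, at 1.28 (-0.10 to 2.81) and 0.70 (-0.46 to 1.67).

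PPARA binds DNA together with RXR at 2 copies of AGGTCA with 1 base between them. Promoters in RefSeq GRCm38.p6, from 250 bases before a start site to 50 after it, were found for 31 of the 35 genes, 34 promoters in all. Both strands were searched, allowing 2 mismatches in the 12 fixed letters, and copies of AGGTCA alone were not counted. A match was found in 3.86% of all 32851 promoters and in 4 of the 34, those of Fabp1, Acot4, Etfa and Slc25a20. Of the 15 genes called higher in the over 30% set, 13 had a promoter in the table and 2 had a match. Those 2 are shown, since both genes were called higher in both barcode sets (Acot4 with levels below the floor at 0 h), from 120 bases before the start site to 20 after it, with the match in capitals.
Fabp1, chr6:71199759-71199898, plus strand: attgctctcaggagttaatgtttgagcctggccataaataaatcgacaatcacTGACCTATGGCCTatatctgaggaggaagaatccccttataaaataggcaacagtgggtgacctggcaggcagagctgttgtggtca
Acot4, chr12:84038259-84038398, plus strand: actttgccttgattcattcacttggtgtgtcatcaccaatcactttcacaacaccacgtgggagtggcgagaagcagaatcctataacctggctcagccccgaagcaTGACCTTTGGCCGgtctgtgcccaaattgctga
The match of Fabp1 lay on the minus strand with 1 mismatch and began 67 bases before the start site. That of Acot4 lay on the minus strand with 2 mismatches and began 13 bases before it. A match with at most 1 mismatch occurred in 0.554% of all promoters and in 1 of the 34. Acsl1 and Acaa1b, the genes called lower in both sets, had no match in this window. A match is a description of the letters and not a measured binding site.

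Across the 31 genes tested in both sets, 14 were higher in both with intervals that left out 0, among them Acadm, Decr1, Ech1, Bdh1, Ppara and Fabp1. Of all 5450 genes tested in both sets, 38.7% were in this class. Lower in both were 4 genes, Slc25a20, Acaa1b, Crot and Acsl1, beside 17.3% of all genes. A further 8 genes, beside 10.5% of all genes, were higher in the over 30% set and lower in the under 2% set: Cpt1a, Cpt2, Acadvl, Hadha, Etfdh, Ehhadh, Acat1 and Angptl4, of which Cpt1a, Hadha, Etfdh and Angptl4 lost the higher sign in the over 30% set under at least 1 other scaling. The 2 sets come from the same pair of libraries, and whether the ratios differed between them was not tested.

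Within the 0 h library, the genes were lower in barcodes over 30% mitochondrial than in those under 2%. The median log2 ratio was -0.81 over 30 genes tested, 24 of which were lower, beside -0.10 for all genes, and 23 lay below that median of all genes. Called lower were 11 of the 30, beside 11.0% of all 5781 genes, and called higher were 0, beside 11.7%. Acat1 had a log2 ratio of -1.69, Fabp1 -1.64 and Acadl -1.59. Within the PHx48h library the median was 0.11 over 32 genes, beside 0.49 for all genes, and 22 of the 32 lay below the median of all. Called lower was 1 gene, Fabp1 at -1.42, beside 7.66% of all 6563 genes. Called higher were 2, Cpt1a at 1.22 and Angptl4 at 1.47, beside 31.2%.

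Levels across 5 ranges of the mitochondrial share showed that several genes changed by steps and not at 1 limit. At 0 h, Fabp1 was at 4753 in barcodes under 2%, 3991 from 2 to 10%, 3468 from 10 to 30%, 1639 from 30 to 50% and 1157 over 50%. Cpt1a at 0 h was at 196, 180, 151, 114 and 86.9 over the same ranges. Both were thus lower in each range than in the one before. At PHx48h Cpt1a was at 65.7, 86.1, 131, 164 and 144, so its order ran the other way up to 50%. Acsl1 was at 1677, 1392, 1248, 855 and 780 at 0 h and at 193, 157, 331, 375 and 385 at PHx48h, and the libraries did not meet in any range. Acaa1b lay between 885 and 1090 in all 5 ranges at 0 h and between 152 and 457 at PHx48h. The smallest range held 143 barcodes, those from 10 to 30% at PHx48h.

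**Figure D3:**
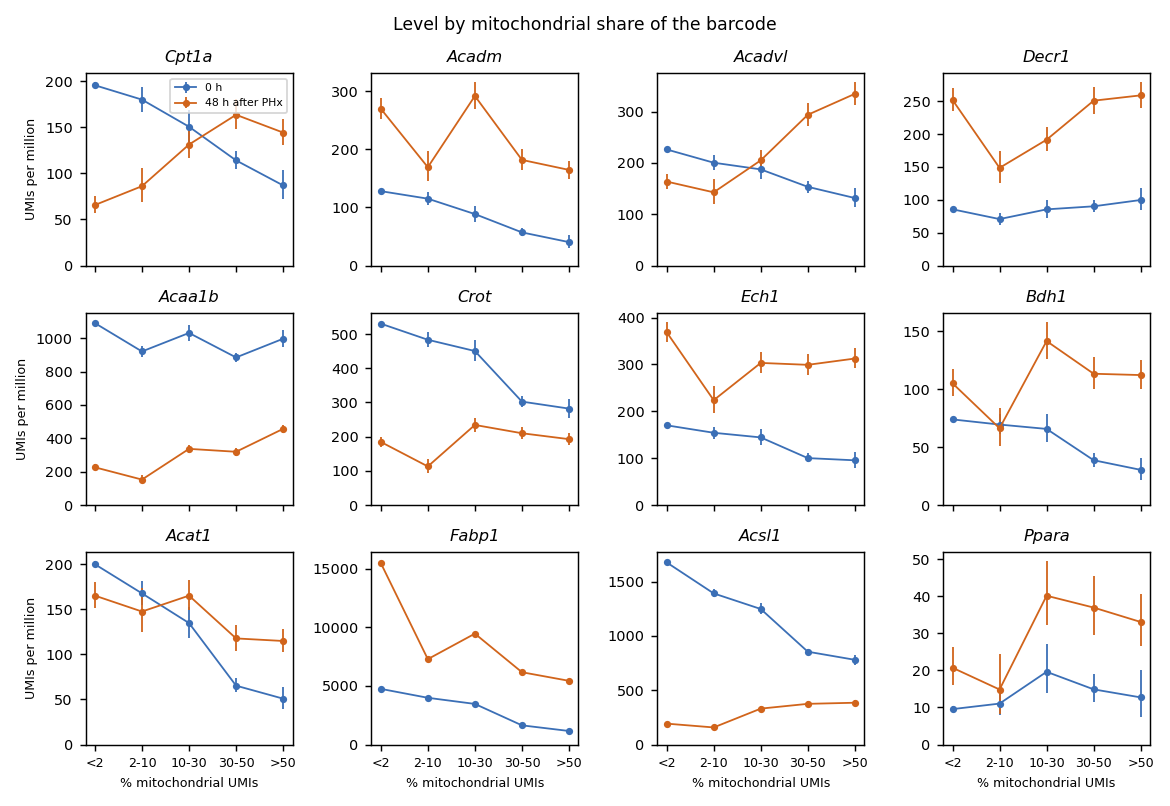
Level in UMIs per 1000000 non-mitochondrial UMIs of 12 of the genes by the percentage of mitochondrial UMIs of the barcode, at 0 h (blue) and PHx48h (orange), with exact Poisson 95% intervals. Fabp1 at 0 h went from 4753 to 1157 over the ranges, and Acsl1 stayed lower at PHx48h than at 0 h in each range.

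Hepatocytes differ in gene use along the axis from the portal vein to the central vein. Barcodes of the over 30% set were cut into 3 equal groups by the share of perivenous marker UMIs among perivenous and periportal marker UMIs, with 10 markers of each zone and none of the 35 genes among them. At 0 h, 196 barcodes with under 5 marker UMIs were left out. All 30 genes tested at 0 h were lower in the periportal group than in the perivenous group. Of all 5915 genes, 27.5% were higher in the periportal group. The interval lay below 0 for 26 of the 30, beside 27.8% of all genes. None of the 30 had an interval above 0, beside 5.98%. The median log2 ratio was -0.71 beside -0.26 for all genes, and 29 of the 30 lay below the median of all. The median mitochondrial shares of these groups were 48.4% and 47.6%, and their median non-mitochondrial UMIs were 1280 and 1162.

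At PHx48h, 26 of 32 genes were lower in the periportal group and 6 were higher, beside 44.2% of all genes that were higher. The median was -0.28 beside -0.06 for all genes. The interval lay below 0 for 16, beside 14.7% of all 7185 genes, and above 0 for 1, beside 8.17%. The periportal group had 6782 median non-mitochondrial UMIs and the perivenous group 3548, so depth moved with this comparison, and its part was not tested. Acaa1b was at 500 in the periportal, 661 in the middle and 1765 in the perivenous group at 0 h, and at 304, 337 and 634 at PHx48h. Its log2 ratios were -1.82 (-1.93 to -1.72) and -1.06 (-1.21 to -0.91). Fabp1 was at 1163, 1595 and 1930 at 0 h and at 5220, 5544 and 7128 at PHx48h. Among the genes at the floor, Acot1 had the lowest log2 ratio at both times, -2.64 and -2.03. It had 7 periportal UMIs at 0 h and 22 at PHx48h. Its periportal levels, 3.49 and 9.58, were below the floor, which it reached through the perivenous group. Acot2 did so at PHx48h, at 9.58 in the periportal and 20.4 in the perivenous group. The direction of both genes was partly set by the filter, and both count among the intervals below 0. Cpt1a was the exception at PHx48h, with levels of 169, 145 and 134 and a log2 ratio of 0.33 (0.07 to 0.61), where at 0 h it had been at 86.6, 111 and 130.

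**Figure D4:**
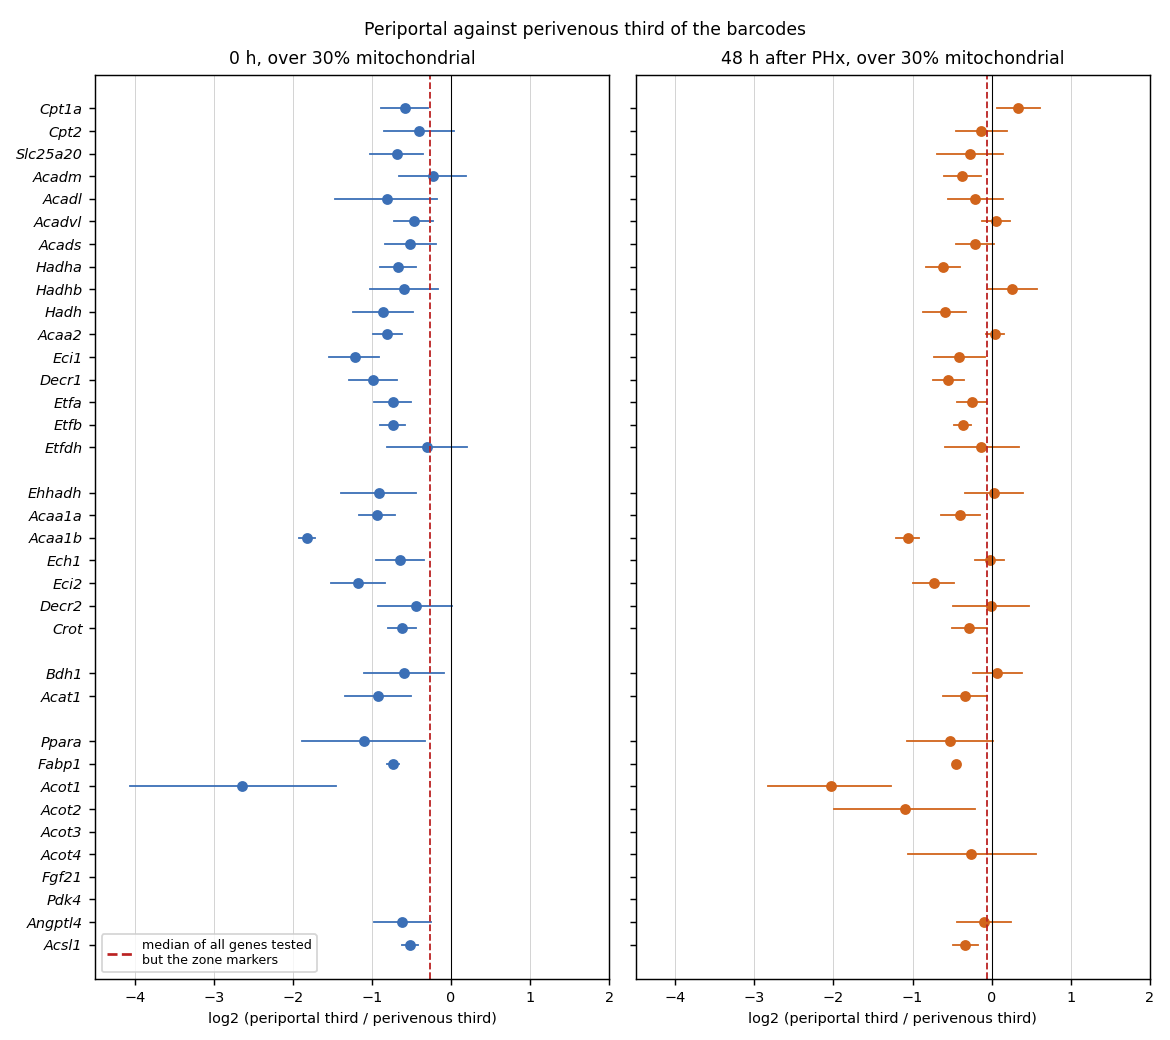
The log2 ratio of the level in the periportal group to that in the perivenous group of barcodes over 30% mitochondrial, with 95% counting intervals, at 0 h (left) and PHx48h (right); genes below the floor are left blank, and the dashed line is the median of all genes tested but the zone markers, -0.26 and -0.06. All 30 points lie below 0 on the left and 26 of 32 on the right. Of all genes tested but the zone markers, 27.5% and 44.2% lay above 0.

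At PHx48h the over 30% set was also divided by the share of proliferation UMIs. The upper 10% held 76 barcodes with a summed proliferation level of 3523, and the other 689 had 701. The median log2 ratio of 32 genes was -0.07 beside 0.11 for all genes, and 25 of the 32 lay below that median. Cpt1a, at 191 against 147, and Acat1, at 143 against 111, had intervals above 0, beside 15.8% of all 7262 genes. The interval lay below 0 for 6 genes, beside 6.84%. They were Etfdh, Acaa1a, Acaa1b, Ech1, Angptl4 and Acsl1. Acsl1 was at 262 in the upper 10% and 401 in the rest, a log2 ratio of -0.62 (-0.83 to -0.40). Fabp1 was at 5668 and 5798, with an interval that held 0. Median non-mitochondrial UMIs were 7187 in the upper 10% and 4161 in the rest, and the part of depth was not tested.

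Variation between barcodes beyond counting error was given for genes with a mean of at least 1 UMI per barcode, as the coefficient of variation that remains after Poisson error is taken off. In the over 30% set at PHx48h, 15 genes qualified, with a median of 0.30 and a range of 0.24 to 0.66. Acaa1b was the highest at 0.66, and Acsl1 followed at 0.45. In the under 2% set at PHx48h, 12 genes had a median of 0.23, with Acaa1b at 0.51 and Acsl1 at 0.49. At 0 h only Fabp1, Acaa1b and Acsl1 qualified, at 0.76, 0.67 and 0.34 in the over 30% set and 0.36, 0.24 and 0.16 in the under 2% set. These values were not compared between the libraries, whose depth differed.

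Transcript length moved with the ratio of the 2 barcode sets and with the ratio of the 2 times. Over all genes at PHx48h, Spearman's rho between the GENCODE M21 transcript length and the log2 ratio of under 2% to over 30% was -0.59 over 6494 genes, and over 32 of the genes described here it was -0.48. At 0 h it was -0.25 over 5723 genes and -0.06 over 30. For PHx48h against 0 h, rho was -0.48 over 5654 genes and -0.31 over 31 of the genes described here in the under 2% set, and -0.21 over 6643 and -0.06 over 31 in the over 30% set. These correlations are across genes of the same libraries, which are not independent replicates. Fabp1, with 553 bases, was higher in the under 2% set at both times, and Cpt1a, with 4317 bases, was higher there at 0 h and lower at PHx48h. The part of length in the ratios was not tested.

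**Figure D5:**
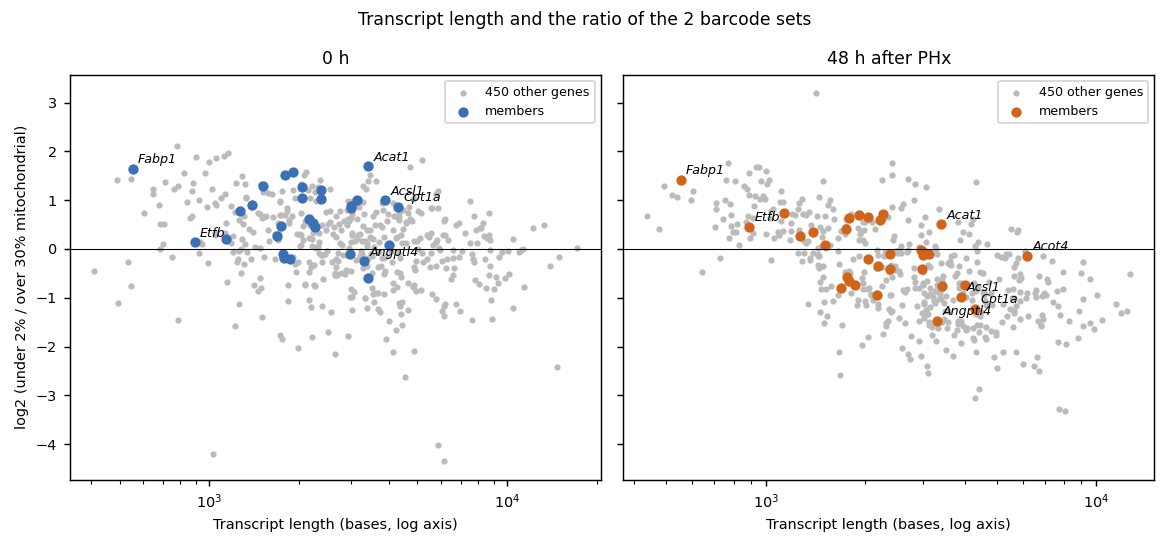
Transcript length in bases (log axis) against the log2 ratio of the level in barcodes under 2% to that in barcodes over 30% mitochondrial, at 0 h (left) and PHx48h (right); coloured points are the genes described here and grey points 450 other genes. At PHx48h Fabp1 lies above 0 and Cpt1a and Angptl4 below it.

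The wider set of 97 genes was made of 5 lists. In the over 30% set 76 reached the floor, of which 16 were called higher, beside 30.6% of all genes, and 2 lower, beside 5.52%, with a median log2 ratio of 0.53 beside 0.54 for all genes. In the under 2% set 71 were tested, 8 were called higher, beside 25.8%, and 19 lower, beside 21.6%, with a median of -0.50 beside 0.09. The peroxisomal list had the lowest median in the over 30% set, -0.07 over 24 genes. The list of ketogenesis and ketone use had the highest, 1.27 over 5. Of those 5 genes, Bdh2 and Slc16a6 were below the floor at 0 h and reached it through PHx48h. In the under 2% set the medians of these lists were -0.69 over 23 genes and 0.02 over 4. The 5 highest ratios in the over 30% set among genes at the floor were those of Abcd2, a peroxisomal fatty acid transporter, Fabp2, the intestinal fatty acid binding protein, Nudt19, a peroxisomal CoA hydrolase, Crat, the carnitine acetyltransferase, and Mgst3. Of these, Abcd2, Crat and Mgst3 were below the floor at 0 h and reached it through PHx48h, so their direction was partly set by the filter. Abcd2 was at 0.519 and 21.9, from 3 UMIs at 0 h, a log2 ratio of 5.40 (3.82 to 7.70). Fabp2 was at 21.3 and 172 in the over 30% set and at 58.4 and 419 in the under 2% set, higher in both like Fabp1.

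The 5 lowest ratios among genes at the floor were those of Acox3, a peroxisomal oxidase for branched chains, Slc27a5, the bile acid and very long chain acyl-CoA synthetase, Nudt7, a CoA hydrolase, Slc25a17, the peroxisomal carrier for cofactors, and Slc27a4, a fatty acid transport protein with acyl-CoA synthetase activity. Acox3 was at 33.1 and 6.47 in the over 30% set and at 22.4 and 2.87 in the under 2% set. It was below the floor at PHx48h in both sets and reached it through 0 h, so its direction was partly set by the filter. Slc27a5 was at 1028 and 485 in the over 30% set and at 847 and 151 in the under 2% set, with log2 ratios of -1.08 and -2.49. All 5 came from the lists of peroxisomal oxidation and of fatty acid uptake and activation, as did Abcd2, Fabp2, Nudt19 and Crat among the 5 highest. They were picked for their low ratios in the over 30% set. In the under 2% set all 5 were lower too, where 45 of the 71 genes tested of the wider set were lower.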

How the data were processed

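Transcripts were measured by scRNA-Seq in 2 libraries, 0 h and PHx48h, assigned by the time point in their labels. The submitters' processing notes name Cell Ranger and mm10, and the authors deposited, for every gene and barcode, whole-number UMI counts that had not been normalized. The version of Cell Ranger, the annotation and the rule behind the barcode lists are not given in the sources used here. From the deposited counts, UMIs of 13 mitochondrial genes were set aside, barcodes over 30% or under 2% mitochondrial were summed per library, and levels were taken per 1000000 non-mitochondrial UMIs. Intervals are exact Poisson for levels and exact conditional binomial for ratios, at 95%, and cover counting error only. No test was made, since each group was 1 library. Calls took 2-fold or more at a mean level of at least 10 per 1000000, and a count of 0 allowed 3 counts. No doublet caller was run on these sets.

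The genes and lists were chosen with earlier results of these data known. All 35 genes are accounted for, genes called in either set with their level in all sets, the others with their ratios or counts. Some genes of these pathways are not reported here. Of the wider lists the 5 highest and 5 lowest ratios were named. Trimmed mean scaling left out 30% of log2 ratios and 5% of mean levels at each end. Ratios, intervals and excess variation were tested on simulated data. Python 3.11.15, NumPy 2.4.6, SciPy 1.17.1 and Matplotlib 3.10.9 were used. Coordinates and transcript lengths came from GENCODE M21 (GRCm38) and promoters from RefSeq GRCm38.p6. Alternatives were 2 other mitochondrial limits per set, 3 scalings, equal weight per barcode, leaving out barcodes rich in markers of other cell types, 5 per 1000000 added, floors of 2 and 50 and a fold of 1.5. Leaving out barcodes found in both libraries, and keeping barcodes of at least 3000 non-mitochondrial UMIs, were added after seeing the data.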

Additional observations from a re-analysis of the deposited data

Results flagged for a closer look

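The genes below had ratios of PHx48h to 0 h of opposite sign in the 2 barcode sets, on the main scale, under all 3 other scalings and relative to the median of all genes. The difference between the sets was not tested, since each time had 1 library. Cpt2 had a log2 ratio of 1.06 in barcodes over 30% mitochondrial and -0.37 in those under 2%. Acadvl had 1.09 and -0.47. Ehhadh had 0.80 and -0.49. Acat1 had 0.91 and -0.28. In the undamaged library each of the 4 was lower in the over 30% set than in the under 2% set, by log2 ratios of -1.02 for Cpt2, -0.61 for Acadvl, -0.87 for Ehhadh and -1.69 for Acat1. At PHx48h Cpt2 (0.41), Acadvl (0.95) and Ehhadh (0.41) were higher in the over 30% set, and Acat1 was lower (-0.51).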

How the results depend on the processing

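In barcodes over 30% mitochondrial, the median log2 ratio of the genes, 0.91 on the main scale, was 0.65 without the 20 most abundant genes, 0.65 scaled to all UMIs and 0.38 with trimmed mean scaling, and the count called higher, 15, was 9, 9 and 6, beside 21.4%, 21.3% and 14.6% of all genes in place of 30.6%. In barcodes under 2%, the median of 0.13 was -0.10 without the 20 most abundant genes, and the count called higher, 8, was 5 there (20.6% of all genes), 5 with trimmed mean scaling (21.7%) and 5 with a floor of 50 per 1000000 (33.0%). The count called lower, 4, was 7 without the 20 most abundant genes (27.1%), 7 with trimmed mean scaling (26.1%) and 7 at a fold of 1.5 (31.6%). Among barcodes with at least 3000 non-mitochondrial UMIs, chosen after seeing the data, the over 30% count called lower, 2, was 1 (5.47% of all genes), and 17 of 33 single ratios in the over 30% set stayed within their counting intervals. Besides Acaa1b and Ppara, Cpt2 (0.80) lost its call there, while Etfa (1.15) and Ehhadh (1.07) gained one, and Etfdh (-1.02) gained one in the under 2% set. The scalings subtract 1 value from every log2 ratio, which by construction moves both counts. No called ratio of a single gene reversed. Without barcodes rich in markers of other cell types, and without barcodes found in both libraries, all 33 and 34 single ratios stayed within their counting intervals. No paired analysis was possible because each group had 1 library. Levels of Fgf21, Pdk4 and Acot3 were limited by depth.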
